A study of Mus musculus with 8 samples.

Results

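The genes described here encode the thin filament and Z-disc of the sarcomere together with the regulatory proteins, light chains and M-band proteins that surround them. They are 45 genes listed by symbol, of 31896 genes named on the arrays, and the rule left off myosin heavy chains and slow isoforms such as Tnnt1 and Myoz2, although the slow form Mybpc1 and Tpm3 are on the list. The 45 genes have 63 probes on 72 spots. The fit across all genes held 41 of them among 19655 tested, because Acta1, Mybph, Myom2 and Myot had a flagged spot on 1 or 2 arrays. Both groups were satellite cells, the resident stem cells of skeletal muscle, isolated at 8 weeks of age from a fast muscle of the hindlimb, the extensor digitorum longus: one group from mice labelled Dnmt3a-KO and the other from wild-type (WT) littermates, and all mice were labelled male. Dnmt3a encodes an enzyme that sets new DNA methylation, and the sources used here do not name the driver of the deletion. All cells grew for 5 days in growth medium, were replated at equal number and were collected after 2, 4, 5 or 6 days in differentiation medium, in which they fuse into myotubes. Each genotype had 1 array per day, 4 arrays per genotype and 8 in all. Whether the days came from separate animals or cultures is not given, so the p-values measure the spread between these arrays, which may be technical.

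In the sarcomere, thin filaments of actin, tropomyosin and troponin are anchored at the Z-disc by alpha-actinin and slide past myosin when calcium binds troponin. Titin spans from Z-disc to M-band as a spring and a scaffold, nebulin runs along the thin filament, and leiomodins and tropomodulins govern the growth and the capping of its free end. Myoblasts switch on these genes as they leave the cell cycle, under MyoD family factors, MEF2 and serum response factor, first with embryonic and cardiac isoforms and later with adult fast or slow ones.

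Signals are given as log2 of the spot intensity divided by the array's 75th percentile, so 0 is the 75th percentile, and a difference of 1 is 2-fold. Per array, 61.6% to 67.4% of spots passed the background test. The 75th percentile was 1528.1 (WT) and 1482.3 (Dnmt3a-KO) intensity units on day 2 and 719.5 to 841.3 on the later arrays. On both day 2 arrays 0 spots had an intensity at or below 0, against 4775 to 5797 of 43020 on the later arrays. All 45 genes were well above background on 7 or 8 arrays, and Myoz3 was the only 1 at 7, with its WT day 2 spot too dim. The 10 replicate spots of Des scattered by 0.0422 to 0.163 log2 units (SD) on an array. Precision is limited throughout by how few arrays there are. Dnmt3a signal in the Dnmt3a-KO arrays was 46.2%, 19.8%, 21.7% and 19.1% of WT on days 2, 4, 5 and 6. The day 2 arrays stand apart from the other 6: they shared a slide of their own and were read with another software version. The later arrays were not on 1 slide either: those of days 4 and 5 shared a slide and those of day 6 had another. They also differed in sex-linked transcripts, since the signal of 4 Y-linked genes cleared background on day 2 in both genotypes and on 0 of the 6 later arrays, while that of Xist did so on the 6 later arrays only, against their label. Every change that involves day 2 therefore cannot be told apart from slide, software, array brightness and these sex-linked differences. A change from day 4 or 5 to day 6 cannot be told apart from slide. A difference between genotypes within a day is free of the slide and the software. Summed scaled signal of 7 skeletal myotube markers was 461 to 575 in WT and 512 to 589 in Dnmt3a-KO, and that of 6 myoblast markers ran from 182 and 187 on day 2 to 88.1 to 108 later, with Myf5 not above background. Fibroblast markers summed to 6.83 to 14.2 in WT and 5.9 to 17.8 in Dnmt3a-KO, with Lum and Dpt not above background on any array. Smooth muscle and pericyte markers summed to 175 to 269 in WT and 159 to 248 in Dnmt3a-KO. Cardiomyocyte markers summed to 0.131 to 0.218 with Myl7 not above background, and leukocyte markers to 0.0303 to 0.0877. In such bulk cultures, fewer cells of a type and less RNA per cell cannot be told apart.

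The promoters of 32 of the 45 genes were matched by symbol to RefSeq (GRCm38.p6), at 38 start sites. The windows of 4 genes are shown, 250 bases upstream of the start and 5′ to 3′, because Acta1 is the main actin of adult skeletal muscle, Xirp2 had among the steepest courses, and Ankrd2 and Csrp3 had the largest genotype differences. Capitals mark matches, on either strand, to the E-box CANNTG bound by MyoD family factors, the MCAT element CATTCC bound by TEAD factors, the TATA box TATAAA, the CArG box bound by serum response factor and the MEF2 site.
Acta1, chr8:123894776-123895025, minus strand: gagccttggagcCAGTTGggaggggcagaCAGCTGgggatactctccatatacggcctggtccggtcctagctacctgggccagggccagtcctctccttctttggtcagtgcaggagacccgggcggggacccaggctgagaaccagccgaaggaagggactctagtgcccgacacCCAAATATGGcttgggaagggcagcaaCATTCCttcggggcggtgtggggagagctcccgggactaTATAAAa
Xirp2, chr2:67445752-67446001, plus strand: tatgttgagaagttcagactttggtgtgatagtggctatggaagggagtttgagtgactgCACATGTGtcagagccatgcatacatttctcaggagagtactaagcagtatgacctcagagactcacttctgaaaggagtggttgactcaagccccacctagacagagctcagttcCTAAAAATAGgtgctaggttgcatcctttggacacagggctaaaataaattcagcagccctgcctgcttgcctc
Ankrd2, chr19:42035777-42036026, plus strand: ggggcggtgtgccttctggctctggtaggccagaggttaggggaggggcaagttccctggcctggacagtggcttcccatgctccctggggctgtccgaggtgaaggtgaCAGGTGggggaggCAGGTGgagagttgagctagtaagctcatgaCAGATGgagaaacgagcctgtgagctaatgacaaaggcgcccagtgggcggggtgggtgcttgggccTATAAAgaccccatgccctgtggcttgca
Csrp3, chr7:48848052-48848301, minus strand: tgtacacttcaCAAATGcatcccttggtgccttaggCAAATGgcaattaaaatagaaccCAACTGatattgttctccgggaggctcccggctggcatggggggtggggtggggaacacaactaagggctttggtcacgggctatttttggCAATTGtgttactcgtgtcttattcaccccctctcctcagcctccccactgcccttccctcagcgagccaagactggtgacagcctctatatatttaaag
The Acta1 window held 2 E-boxes, an MCAT element, a CArG box and a TATA box. The Xirp2 window held 2 overlapping E-boxes and a MEF2 site, Ankrd2 held 3 E-boxes and a TATA box, and Csrp3 held 4 E-boxes. Over all 38 windows, 30 held an E-box (78.9%, against 66.2% of 32851 windows of the same length in the table). An MCAT element was in 26.3% against 12.6%, a CArG box in 13.2% against 1.47%, a MEF2 site in 13.2% against 2.92% and a TATA box in 10.5% against 12.4%. Start sites of the same gene were counted separately. The same CArG box of Ldb3 was thus counted in both of its overlapping windows, and both Synpo2l windows held a MEF2 site. CpG dinucleotides, the sites that DNA methyltransferases modify, numbered 9 in the Acta1 window, 0 in Xirp2, 5 in Ankrd2 and 5 in Csrp3. The median was 5 over the 38 windows, with a range of 0 to 24, and 6 over the whole table. These are letter matches in a fixed window, and no methylation was measured here.

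The first question was how the genes moved over the days of differentiation. Most were dimmer on day 2 than later: the slope of log2 signal on day passed the threshold upwards in 25 of 41 genes (limma, adjusted p under 0.05), against 25.9% of all genes tested, and downwards in 4 of 41, against 19.5%. The 25 included 6 of 7 troponin and tropomyosin genes, 9 of 15 Z-disc genes, 6 of 6 light chain, kinase and myosin binding protein genes and 3 of 7 genes of actins and filament ends, with Ckm from the M-band and creatine kinase group. The median slope was 0.19 log2 units per day, against 0.03 over all genes. The rise lay between day 2 and day 4. From day 2 to day 4 the median difference was 1.09 in WT and 0.80 in Dnmt3a-KO, against 0.10 and 0.07 over all genes, while from day 4 to day 6 it was -0.23 in WT and -0.03 in Dnmt3a-KO. Without day 2, 0 of 41 slopes passed in limma, against 0 of all 19655 genes. Of the 41 slopes, 33 lay below 0, and 8 of them had an unadjusted p under 0.05, all downwards. The shares of all genes for these counts were not computed. The median slope without day 2 was -0.06, against 0.005 over all genes. Without day 5 the number that passed was also 0, against 391 of all genes, with 28 of the 41 at an unadjusted p under 0.05. The share of all genes at that unadjusted threshold was not computed. With slide as a random block it was 2, against 1935 of all genes. A contrast of day 2 with the mean of days 4 to 6 called 36 of 41 genes, 32 higher later and 4 lower. It also called 12566 of all 19655 genes. The role of the day 2 slide, software, brightness and sex-linked differences in these values was not tested, nor was that of the separate day 6 slide.

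**Figure D1:**
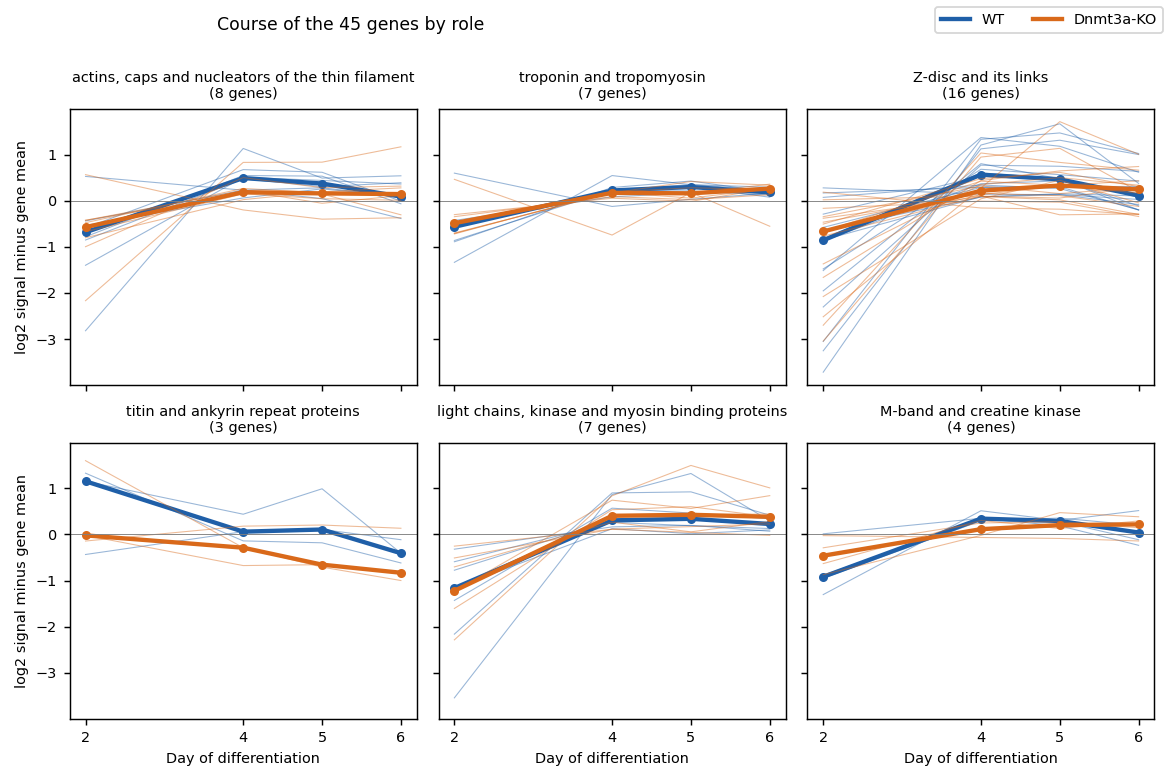
Log2 signal of each gene minus its mean over the 8 arrays (y) on days 2, 4, 5 and 6 (x), in 6 panels by role, with WT in blue and Dnmt3a-KO in orange; thin lines are single genes and thick lines the median of each panel. Medians lie lowest on day 2 in 5 panels, and those of titin and the ankyrin repeat genes fall from day 2 instead.

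Among the actins and the proteins of the filament end, Actc1, the cardiac actin that developing skeletal muscle also makes, read 8.09, 8.76, 8.81 and 8.61 in WT and 8.10, 8.75, 8.47 and 8.64 in Dnmt3a-KO on days 2, 4, 5 and 6. All 6 later arrays lay above both day 2 arrays, yet the slope of 0.13 ± 0.05 (SE) per day did not pass (adjusted p = 0.069). Acta1, the adult skeletal actin, read 7.35, 8.68, 8.51 and 8.59 in WT and 7.40, 8.23, 8.40 and 8.48 in Dnmt3a-KO. Its Dnmt3a-KO day 4 spot was flagged. With flagged spots kept, an alternative added after the data were seen, its slope was 0.29 ± 0.06 (SE, adjusted p = 0.015). Tmod4, the tropomodulin of skeletal muscle that caps the pointed end, read -1.36, 2.60, 1.95 and 2.00 in WT and -0.70, 2.29, 2.30 and 2.63 in Dnmt3a-KO. It rose by 0.84 ± 0.19 (SE) per day (adjusted p = 0.017), and the day 4 value was 15.5-fold the day 2 value in WT and 7.99-fold in Dnmt3a-KO. Lmod2 and Lmod3, the leiomodins that nucleate actin filaments, rose by 0.39 and 0.17 per day (adjusted p = 0.023 and 0.028). Tmod1 at 0.15 and Nrap, a scaffold of myofibril assembly, at 0.16 did not pass.

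In the troponin complex, Tnnt3, the fast troponin T that ties the complex to tropomyosin, read 6.59, 7.76, 7.90 and 7.67 in WT and 6.77, 7.66, 7.76 and 7.72 in Dnmt3a-KO. Every later array was above day 2 in both genotypes, and the slope was 0.27 ± 0.07 (SE) per day (adjusted p = 0.019). Tnni2, the fast inhibitory subunit, rose by 0.34, Tnnc2, the fast calcium-binding subunit, by 0.28, and Tnnt2, the cardiac troponin T of immature muscle, by 0.14 per day, with adjusted p between 0.014 and 0.025. Tpm1 and Tpm2, the tropomyosins that lie along the actin groove, rose by 0.18 and 0.14 per day, and Tpm3 did not pass at -0.15 (adjusted p = 0.18). This set was nearly level after day 4, with a median day 6 minus day 4 difference of -0.10 in WT and 0.16 in Dnmt3a-KO.

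At the Z-disc, Myoz3 and Xirp2 had the largest fitted slopes, that of Myoz3 on a probe too dim on WT day 2. Myoz3, a calsarcin that binds calcineurin and alpha-actinin, read -6.74, -1.81, -1.35 and -2.65 in WT and -5.54, -2.75, -1.31 and -2.01 in Dnmt3a-KO. It rose by 1.06 ± 0.26 (SE) per day (adjusted p = 0.020), from a WT day 2 signal near the floor of -7.03. Its other probe, above background on all 8 arrays, rose by only 0.24 ± 0.06 (SE, adjusted p = 0.019 in the fit over all probes), so the size of the rise depends on the probe. Xirp2, an actin-binding repeat protein, read -2.18, 2.20, 2.39 and 2.08 in WT and -1.62, 2.11, 1.91 and 1.74 in Dnmt3a-KO. Its slope was 0.99 ± 0.23 (SE, adjusted p = 0.018), and day 4 was 20.8-fold day 2 in WT and 13.3-fold in Dnmt3a-KO. Tcap, which links titin to the Z-disc, read 4.49, 7.57, 7.54 and 7.43 in WT and 5.13, 7.23, 7.44 and 7.54 in Dnmt3a-KO, a slope of 0.69 ± 0.14 (SE, adjusted p = 0.014).

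Csrp3, the muscle LIM protein, read 2.69, 5.57, 5.38 and 4.82 in WT and 2.12, 4.24, 4.64 and 4.15 in Dnmt3a-KO, and rose by 0.57 ± 0.17 (SE) per day (adjusted p = 0.031). Smpx, a small protein of the costamere, read 2.41, 4.57, 4.45 and 4.31 in WT and 2.52, 4.24, 4.39 and 4.22 in Dnmt3a-KO, and rose by 0.47 ± 0.12 (SE, adjusted p = 0.019). In both genes each later array lay above both day 2 arrays. Des, the intermediate filament protein that joins neighbouring Z-discs, read 4.70, 5.93, 6.00 and 5.69 in WT and 4.90, 5.70, 5.89 and 5.73 in Dnmt3a-KO, with a slope of 0.25 ± 0.07 (SE, adjusted p = 0.030). Synpo2l, Cryab (a small heat shock protein that protects desmin) and Actn3 (fast-fibre alpha-actinin) rose by 0.26, 0.24 and 0.17 per day. Myot, an actin-bundling protein outside the fit for a flagged Dnmt3a-KO day 6 spot, went from 0.18 to 4.56 between days 2 and 4 in WT and from 0.19 to 4.18 in Dnmt3a-KO. Flnc, the muscle filamin, was the Z-disc gene that fell, by 0.10 per day (adjusted p = 0.033), and Actn2, Ldb3, Myoz1, Pdlim3 and Xirp1 did not pass.

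All 6 myosin-associated genes in the fit rose, by 0.19 to 0.98 per day. Mybpc2, the fast myosin binding protein C, read -3.03, 1.37, 1.83 and 0.80 in WT and -1.78, 1.35, 2.01 and 1.52 in Dnmt3a-KO, a slope of 0.98 ± 0.24 (SE, adjusted p = 0.019). Mybpc1, the slow form, read 3.06, 6.12, 6.14 and 5.64 in WT and 3.62, 5.76, 5.82 and 5.60 in Dnmt3a-KO, a slope of 0.61 ± 0.17 (SE, adjusted p = 0.025). Both were lowest on day 2 in each genotype, by far more than later days differed. The light chain genes Myl1, Myl4 and Mylpf rose by 0.44, 0.25 and 0.19 per day, and Mylk2, the skeletal kinase that phosphorylates the regulatory light chain, by 0.41 (adjusted p = 0.017). Ckm, the muscle creatine kinase bound at the M-band, read 2.33, 4.15, 3.94 and 4.15 in WT and 2.76, 3.61, 4.11 and 4.02 in Dnmt3a-KO and rose by 0.40 ± 0.08 (SE, adjusted p = 0.014). The M-band cross-linkers Myom1 and Myom3 did not pass, at 0.17 and -0.04 per day, and Myom2 had a slope of 0.26 (adjusted p = 0.023) with flagged spots kept.

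Titin went the other way. Ttn read 6.05, 4.58, 4.54 and 4.10 in WT and 6.32, 4.43, 4.01 and 3.72 in Dnmt3a-KO, and fell by 0.57 ± 0.07 (SE) per day (adjusted p = 0.0082). Day 2 was the highest and day 6 the lowest in both genotypes. Neb read 4.90, 4.60, 4.42 and 3.99 in WT and 4.94, 4.17, 3.97 and 4.00 in Dnmt3a-KO, and fell by 0.23 ± 0.04 (SE, adjusted p = 0.012). Ankrd2, an ankyrin repeat protein that binds titin's N2A region and responds to stretch, had a slope of -0.25 ± 0.08 (SE, adjusted p = 0.042). That call was lost when any 1 day was left out (adjusted p = 0.060 to 0.79), with slide as a random block (0.31) and in the contrast of day 2 with later days (0.068). Its relative Ankrd1 had a slope of 0.09 that did not pass. Titin and nebulin were also lower on day 6 than on day 4 in both genotypes, with day 6 on another slide. On days 4 to 6 alone their slopes were -0.30 and -0.20, with unadjusted limma p of 0.0055 and 0.044. Neither passed after adjustment (adjusted p = 0.55 and 0.61).

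The 13 genes with several probes show whether these courses depended on the probe. All 4 Ttn probes, spread over 260465 bases of chr2 (mm9), fell, by 0.44 to 0.70 per day with adjusted p of 0.0083 to 0.011, and both Neb probes fell. Both probes of Cryab, Mybpc1 and Myoz3 rose. Both probes of Smpx, Nrap and Tpm2 pointed up, with 1 Smpx probe passing. The Tpm2 call sits at the threshold, with an adjusted p of 0.049 in the fit over genes and 0.050, not passing, in the fit over probes, and the second probes of Myl1 and Tnnt3 were not in the fit. Ldb3 gave -0.07 per day on the probe used and 0.27 on the other, and neither passed. Tropomyosin probes disagreed most. Tpm1 makes muscle and non-muscle tropomyosins from different exons, and Tpm3 makes the slow-muscle alpha tropomyosin as well as cytoskeletal forms. The first 30 of each 60-base probe are given because the probes of 1 gene gave different courses, in order from the 5′ side, with mm9 coordinates.
Tpm1 probe 1, chr9:66880274-66880333: ggaagaacagttaagaataatggatcagac
Tpm1 probe 2, chr9:66875796-66875855: ccttagggccaggcacagactgctttctat
Tpm1 probe 3, chr9:66875782-66875841: acagactgctttctattgtacagaagcaat
Tpm1 probe 4, chr9:66872131-66872190: gagggctgcctgcctggcccgtgtttccct
Tpm1 probe 5, chr9:66871166-66871225: gaaaaccttagtatgcaccagatgctggat
Tpm3 probe 1, chr3:89877669-89877728: aagaagctgaaagggacagaggatgagctg
Tpm3 probe 2, chr3:89904428-89904487: tgccatctcattgtgctttgtatcagtcag
Probes 2 and 3 of Tpm1 overlap by 46 bases and rose by 0.18 and 0.24 per day, and probe 2, the brightest, is the one used above. Probe 1 fell by 0.38 per day (adjusted p = 0.039), and probes 4 and 5 had slopes of -0.20 and -0.34 that did not pass (adjusted p = 0.050 and 0.082). Which exon or untranslated region each probe lies in was not analysed here.

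Tpm3 probe 1 read -4.70, 0.57, 1.70 and -0.69 in WT and -5.41, -3.36, -1.83 and -2.38 in Dnmt3a-KO. It rose by 1.03 ± 0.31 (SE) per day (adjusted p = 0.034) and was lower in Dnmt3a-KO on all 4 days, with differences of -0.71, -3.92, -3.53 and -1.68 log2 units. The mean difference of -2.46 ± 1.52 (SD, n = 4 days) had an unadjusted p of 0.0073 and did not pass in a limma fit over all probes (adjusted p = 0.26). On days 4 to 6 the lowest WT array was above the highest Dnmt3a-KO array. Tpm3 probe 2, the brighter one used for the gene, read 5.35, 4.62, 4.78 and 4.91 in WT and 5.21, 4.00, 4.93 and 4.19 in Dnmt3a-KO, and showed no such rise. Its Dnmt3a-KO minus WT differences were -0.62 on day 4 and -0.72 on day 6, and those of Tpm1 probe 5 were -0.81 and -0.90 on those days. The summed smooth muscle markers were 159 and 160 in Dnmt3a-KO against 251 and 226 in WT on days 4 and 6, and 248 against 269 on day 5, and their part in these values was not tested. That sum weights the brightest markers most, which were Acta2 and Tagln on days 4 and 6. On those days Acta2, Tagln, Cnn1, Cspg4 and Notch3 were lower in Dnmt3a-KO, Smtn was lower on day 4 only, and the dim Rgs5 was higher. The tropomyosin probe results were picked out after their values were seen.

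**Figure D2:**
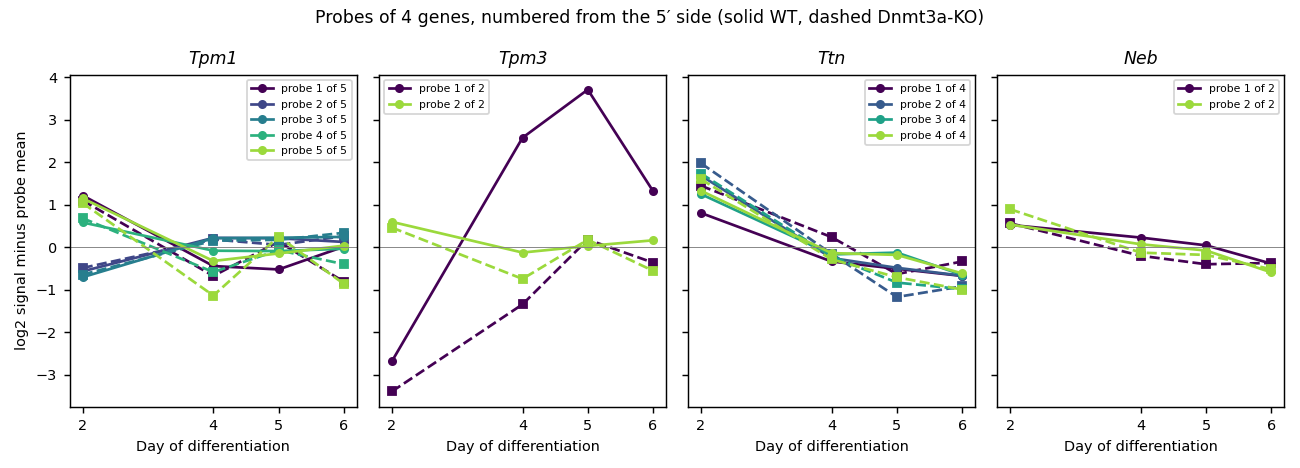
Log2 signal of each probe minus its mean over 8 arrays (y) by day (x) for Tpm1, Tpm3, Ttn and Neb; solid lines with circles are WT, dashed lines with squares Dnmt3a-KO, and colours number the probes from the 5′ side. Tpm3 probe 1 climbs from day 2 and its Dnmt3a-KO line lies below WT on all 4 days, whereas the 4 Ttn probes and 2 Neb probes fall together.

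The second question was whether loss of Dnmt3a changed these genes. None of these genes passed: 0 of 41 in the limma fit with day as a block, against 0.0102% of all genes (2 of 19655). Each alternative tried also gave 0 of these genes, while over all genes the alternatives called 0 to 128. At an unadjusted p under 0.05, 6 of 41 genes were lower in Dnmt3a-KO (14.6%, against 6.71% of all genes) and 4 were higher (9.76%, against 6.17%). The mean difference over the 4 days had a median of -0.02 over the 41 genes, against -0.01 over all genes, a value with no stable sign: it was 0.02 under quantile scaling, 0.0053 under median scaling and 0.45 under normexp correction, and leaving out days in turn gave -0.11 to 0.03. Daily medians were 0.14, -0.24, -0.16 and 0.05 on days 2, 4, 5 and 6, against 0.01, -0.02, -0.05 and 0.02 over all genes. Lower values on all 4 days were seen in 8 of 41 genes (19.5%, against 11.5%), and higher values on all 4 days in 3 of 41 (7.32%, against 10.9%).

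**Figure D3:**
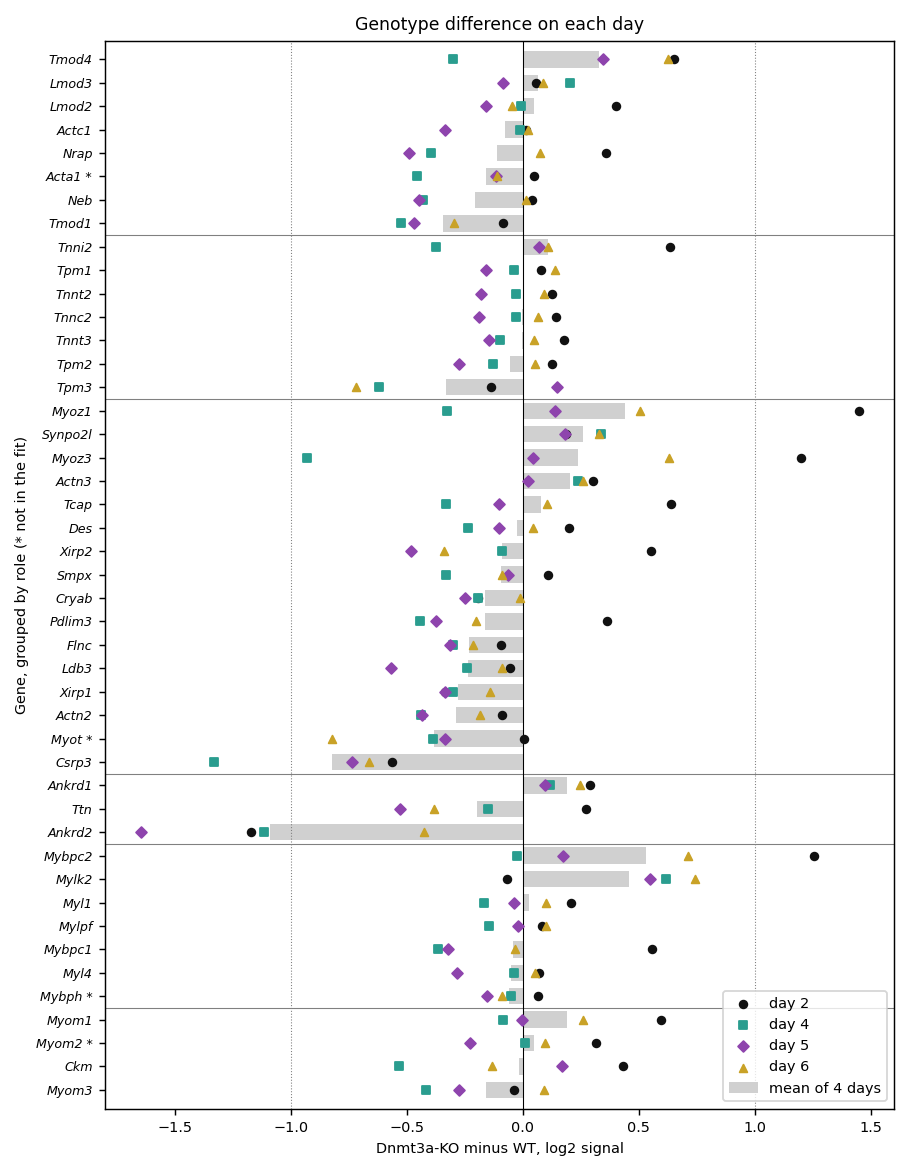
Dnmt3a-KO minus WT in log2 signal (x) for each of the 45 genes (y), grouped by role; symbols are the 4 days, grey bars their mean, dotted lines mark 2-fold, and an asterisk marks a gene outside the fit. Ankrd2 and Csrp3 have the lowest means, at -1.09 and -0.82, while most other genes have symbols on both sides of 0.

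The largest differences, on the probes used for the genes, were in Ankrd2 and Csrp3. Ankrd2 read 5.14, 4.42, 4.97 and 3.58 in WT and 3.96, 3.31, 3.33 and 3.15 in Dnmt3a-KO. It was lower in Dnmt3a-KO on all 4 days, with differences of -1.17, -1.11, -1.64 and -0.42, although the WT day 6 array lay within the Dnmt3a-KO range. The mean difference was -1.09 ± 0.50 (SD, n = 4 days), 2.13-fold lower, with an unadjusted p of 0.0026 and an adjusted p of 0.18. The Csrp3 values given above were lower in Dnmt3a-KO, with differences of -0.56, -1.33, -0.74 and -0.66, and within days 4 to 6 the lowest WT array exceeded the highest Dnmt3a-KO array. Its mean difference was -0.82 ± 0.34 (SD, n = 4 days), 1.77-fold lower (unadjusted p = 0.0021, adjusted p = 0.17). Over the alternatives the adjusted p ran from 0.055 to 1 for Ankrd2 and from 0.075 to 1 for Csrp3, and both stayed below 0.

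Smaller differences lay on one side on all 4 days. Tmod1, the tropomodulin shared with heart, read 0.78, 2.05, 1.99 and 1.36 in WT and 0.70, 1.52, 1.52 and 1.07 in Dnmt3a-KO, a mean difference of -0.34 ± 0.20 (SD, n = 4 days, adjusted p = 0.31). Actn2, the alpha-actinin of all fibres and heart, read 5.08, 5.90, 5.83 and 5.26 in WT and 4.99, 5.46, 5.39 and 5.08 in Dnmt3a-KO, with -0.29 ± 0.18 (adjusted p = 0.33). Xirp1 read 2.78, 2.90, 2.92 and 2.41 in WT and 2.45, 2.60, 2.58 and 2.27 in Dnmt3a-KO, with -0.28 ± 0.09 (adjusted p = 0.28). Within each day these WT arrays were the brighter, but over days the genotypes overlapped. Ldb3, which encodes a PDZ and LIM protein bound to alpha-actinin, read 4.04, 4.31, 4.23 and 3.77 in WT and 3.99, 4.07, 3.66 and 3.68 in Dnmt3a-KO, with -0.24 ± 0.24 (adjusted p = 0.43). Flnc at -0.23 and Cryab at -0.16 completed the 8. The second probes of Ldb3 and Cryab were higher in Dnmt3a-KO on 1 day each, by 0.16 on day 2 and 0.06 on day 4. The differences of Actn2, Xirp1 and Ldb3 turned positive under normexp background correction.

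Above WT on all 4 days were Synpo2l, Actn3 and Ankrd1. Synpo2l, a Z-disc protein of heart and skeletal muscle, read 2.49, 3.42, 3.49 and 3.44 in WT and 2.67, 3.76, 3.67 and 3.77 in Dnmt3a-KO, a mean difference of 0.26 ± 0.09 (SD, n = 4 days, adjusted p = 0.30). Actn3 read 5.34, 6.07, 6.12 and 6.02 in WT and 5.64, 6.31, 6.15 and 6.28 in Dnmt3a-KO, with 0.21 ± 0.12 (adjusted p = 0.38). Ankrd1 read 5.48, 5.97, 6.02 and 5.80 in WT and 5.77, 6.09, 6.11 and 6.04 in Dnmt3a-KO, with 0.19 ± 0.10 (adjusted p = 0.38). These differences were under 0.35 log2 units on each day, and none passed. Mylk2 was level on day 2 at -1.39 in WT and -1.46 in Dnmt3a-KO, then higher in Dnmt3a-KO by 0.62, 0.55 and 0.74 on days 4, 5 and 6 (adjusted p = 0.34). The troponins and tropomyosins had mean differences of -0.33 to 0.11 with a median of -0.0027 on the probes used.

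**Figure D4:**
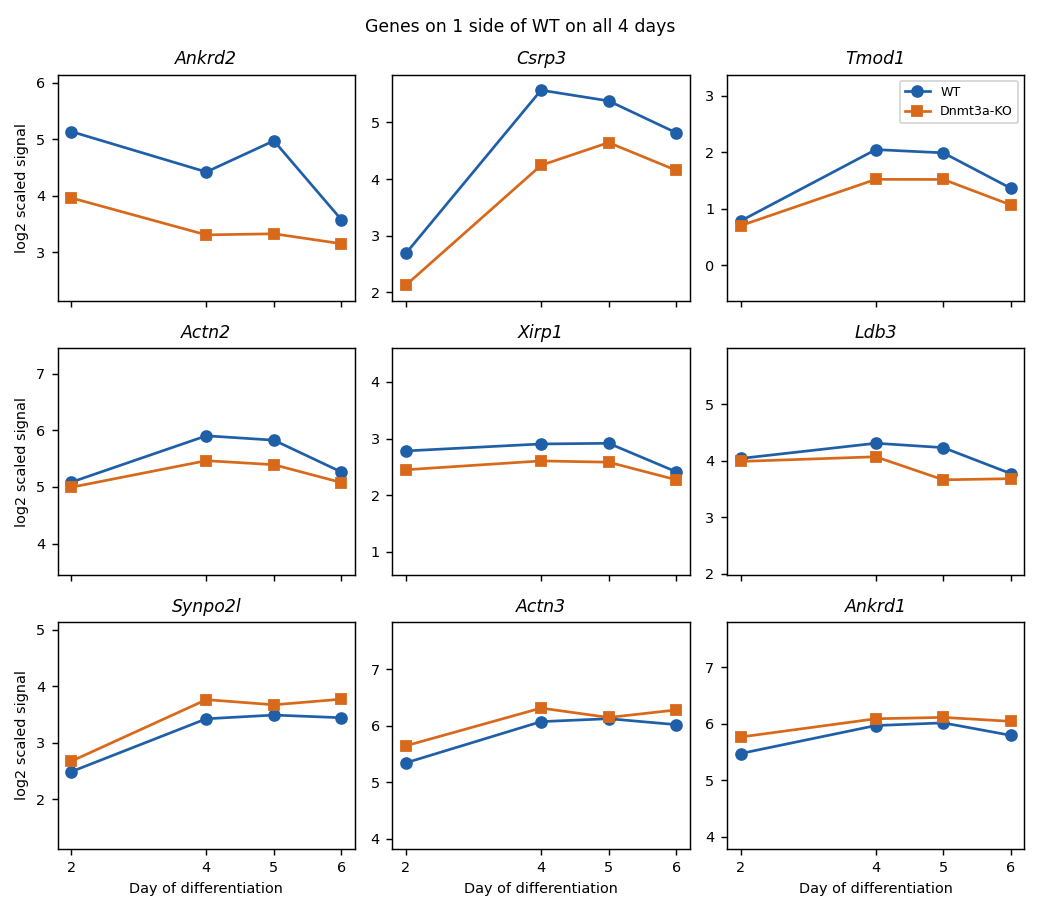
Log2 scaled signal (y, each panel spanning 4 units around its own centre) by day (x) in WT (blue circles) and Dnmt3a-KO (orange squares) for 6 genes lower and 3 higher in Dnmt3a-KO on all 4 days. The lines of Ankrd2 lie furthest apart on day 5 (-1.64) and closest on day 6 (-0.42), and those of Csrp3 on day 4 (-1.33) and day 2 (-0.56). Those of the other 7 genes run closer together, with the widest gap in Ldb3 on day 5 (-0.57).

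Differences of 2-fold or more on a single day, for which there is no test, were few. On day 2 they were seen in 4 of 41 genes, against 3.03% of all genes: Myoz1 and Mybpc2 were higher in Dnmt3a-KO by 1.45 and 1.26, Ankrd2 was lower, and Myoz3 was counted as higher. The WT spot of Myoz3 was not well above background that day, and its other probe, above background on all 8 arrays, differed by -0.05. On day 4 they were seen in Ankrd2 and Csrp3, against 4.53% of all genes, on day 5 in Ankrd2 alone, against 2.74%, and on day 6 in 0 of 41, against 3.18%. Myoz1, the fast calsarcin, read 1.12, 3.88, 3.55 and 2.87 in WT and 2.57, 3.55, 3.69 and 3.38 in Dnmt3a-KO, so its day 2 difference of 1.45 was -0.33 on day 4.

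The step between day 2 and day 4 was smaller in Dnmt3a-KO for most genes. A rise of 2-fold or more was seen in 22 of 41 genes in WT (53.7%, against 15.4% of all genes) and in 12 of 41 in Dnmt3a-KO (29.3%, against 14.3%). A fall of that size was seen in 1 gene in WT, Ttn, against 10.4%, and in 2 in Dnmt3a-KO, Ttn and Tpm3, against 11.2%. The Dnmt3a-KO step was below the WT step in 35 of 41 genes (85.4%, against 52.8% of all genes), with Mylk2 the clearest exception at 1.97 against 1.29. Ckm went up 3.52-fold in WT and 1.81-fold in Dnmt3a-KO, Tnni2 3.68-fold and 1.83-fold, and Nrap 2.51-fold and 1.49-fold. The summed smooth muscle markers went from 175 to 251 between these days in WT and from 184 to 159 in Dnmt3a-KO, and their part in the smaller steps was not tested. From day 4 to day 6, a 2-fold difference was seen in 1 of 41 genes in WT, Myoz1, which was lower on day 6, against 2.91%, and in 0 of 41 in Dnmt3a-KO, against 2.19%. Each step rests on 2 arrays and has no test. The test of a slope that differs between genotypes called 0 of 41 genes, against 0% of all genes, and 3 had an unadjusted p under 0.05 (7.32%, against 4.17%): Xirp2 and Ttn with a lower slope in Dnmt3a-KO, by -0.25 and -0.19 per day, and Mylk2 with a higher one, by 0.20.

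**Figure D5:**
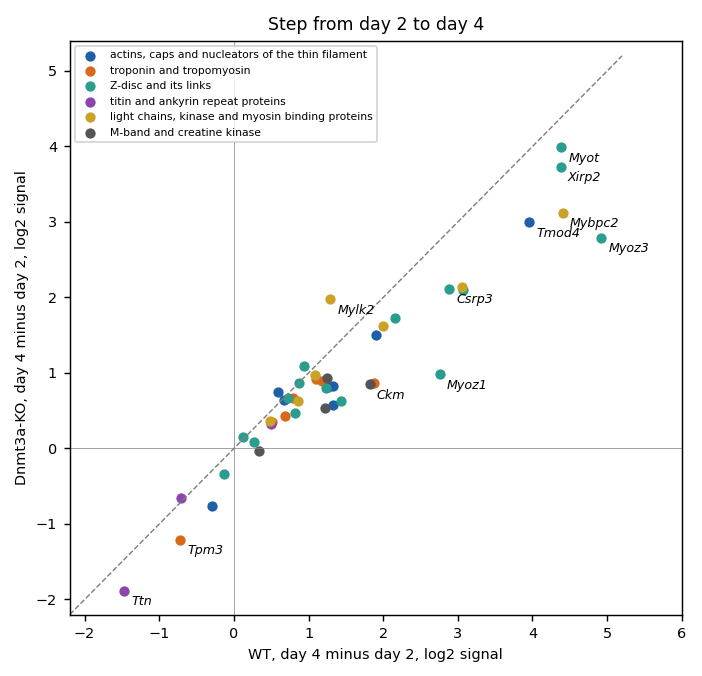
Difference between day 4 and day 2 in log2 signal in WT (x) and Dnmt3a-KO (y), 1 point per gene coloured by role; the dashed line marks equal steps. Most points lie below the line, among them Myoz1 and Ckm, and Mylk2 lies above it. The WT step of Myoz3 starts from a spot that was not well above background.

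Other genes of the sarcomere, from a list of 56 of which 46 were tested, gave 17 rising and 4 falling slopes, against 25.9% and 19.5% of all genes, with a median slope of 0.09 per day. For genotype, 1 passed: Myh6, the alpha myosin heavy chain of heart, was lower in Dnmt3a-KO, with a difference of -1.37 ± 0.08 (SD, n = 4 days, limma adjusted p = 0.042). That call depended on the settings. Under quantile scaling, median scaling or normexp correction, and without day 4, 5 or 6, 0 of all genes passed for genotype. At an unadjusted p under 0.05, 11 of the 46 were lower and 2 higher, against 6.71% and 6.17% of all genes. The 11 held slow-fibre genes such as Myh7 at -2.06, Myl2 at -1.65 and Myoz2 at -0.59, none of which passed. The slow troponin gene Tnnt1 had a mean difference of 0.01 ± 0.43 (SD, n = 4 days, limma adjusted p = 0.99), and Mybpc1 one of -0.04 ± 0.42. In both genes these means cover differences of opposite sign. Tnnt1 was higher in Dnmt3a-KO on days 2 and 6 and lower on days 4 and 5. Mybpc1 was higher by 0.56 on day 2 and lower on the later days. Of 14 transcription factors known to act on sarcomere promoters, 11 were tested. Mef2c rose by 0.43 per day, and Myod1, Mef2d, Srf and Tead1 were among those that fell, these 4 by 0.11 to 0.33. None of the 11 passed for genotype.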

How the data were processed

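RNA of 8 samples was measured on 1-colour Agilent arrays, and the 45 genes and all lists were chosen with earlier results of these data known. The authors deposited, per the file headers, the processed intensity of each spot from Feature Extraction 11.0.1.1 (day 2) or 9.5.3.1 (days 4 to 6), and the submitters' processing notes name version 9.5. The deposited value table holds a score, which matches 100 times the processed intensity over the array's 75th percentile within 1 unit or 1% on 100% of spots, against column medians of 6. The intensities were scaled to the 75th percentile of an array's 43020 non-control spots, floored at 0.00763 and put on the log2 scale. Spots flagged as outliers were dropped, the probe with the highest mean was kept per gene, and genes well above background on 4 of 8 arrays were tested. Tests used limma 3.58.1 in R 4.3.3 with Benjamini-Hochberg adjustment over all genes at 0.05: the genotype difference (Dnmt3a-KO minus WT, day as block, 3 residual degrees of freedom), the slope on day (genotype as covariate, 5) and their interaction (2). Day pairs the arrays, since each day's arrays share a slide. The steps were tested on simulated data. Alternatives covered scaling, background correction, the filter, the floor, the probe rule, the variance model, the blocks and leaving out days. Values on every array are given for the 8 largest and 4 smallest slopes, up to 6 genes per direction with the largest difference of 1 sign on all 4 days, and a reference gene per role. Probe coordinates are the files' (mm9), and promoters come from RefSeq.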

Additional observations from a re-analysis of the deposited data

Results flagged for a closer look

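One of 41 genes screened had a day whose genotype difference stood far from the other days. For Actc1 the Dnmt3a-KO minus WT difference on day 5 was -0.336 log2 units, while the other 3 days lay between -0.00972 and 0.0222. Chance alone sets apart about 1 in 20 groups.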

How the results depend on the processing

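The count of 29 genes whose slope passed (25 up and 4 down) became 0 under normexp background correction, 18 with no filter on dim probes, 2 with slide as a random block and 0 with slide as a fixed block, and leaving out days in turn gave 0 to 33. Over all genes the count went from 8920 to 0, 7470, 1935 and 0 in the same order, and leaving out days gave 0 to 9863. Normexp correction also moved the median genotype difference of all genes to -0.36 and that of the 41 genes to 0.45, and turned the differences of Actn2 to 0.241, Xirp1 to 0.155 and Ldb3 to 0.291. The cause was not tested. With slide as a fixed block, which rests the slope on days 4 and 5, the slope was -0.00844 for Xirp2, -0.319 for Tmod4, 0.286 for Ankrd2 and 0.538 for Tpm3, and the mean of both Tpm3 probes gave 0.436. Leaving out days gave slopes from -0.0252 to 1.65 for Myoz3, -0.124 to 1.45 for Xirp2, -0.0991 to 1.5 for Mybpc2, -0.0638 to 1.15 for Tmod4, -0.159 to 0.941 for Mybpc1, -0.21 to 0.924 for Csrp3, -0.0677 to 0.698 for Smpx and -0.191 to 0.12 for Tpm3, with the sign turned when day 2 was left out. Of 215 slopes of named genes under the alternatives, 147 kept direction and call, and of 153 genotype differences 150 did. For genotype, 0 of these genes passed under every alternative, against 0 to 128 of all genes. Without the day block (no replicate block) 0 passed, against 0 of all genes, and 1 of 41 had an unadjusted limma p under 0.05. That count was 10 with the pairing, and the share of all genes without the block was not computed. With 2 to 5 residual degrees of freedom, a difference that misses the threshold is not shown to be 0.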
